A study of Mus musculus with 6 samples.

Results

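The Hox genes are the clustered homeobox genes of the mouse, which code for transcription factors that give cells their position along the body axis. They were taken as every gene of clusters A to D whose symbol a platform annotation gives alone to at least 1 probe set, an array's group of probes for one transcript. Of the 39 Hox genes of the mouse, 33 were measured in this way, by 48 of the 45101 probe sets, among 18194 genes in all. The 6 others were not analysed here by a probe set of their own. Where a gene had several, the probe set of highest mean level stood for it.

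RNA came from mouse hepatic stellate cells on the C57Bl/6 background. These are the perisinusoidal, vitamin A-storing cells of the liver that turn into matrix-making myofibroblasts on injury. All 6 samples carried the same transgenes, labelled CMV-rtTA;TRE-GFP-shRNA.p53.1224, in which a reverse tetracycline transactivator under a CMV promoter drives green fluorescent protein and a hairpin against p53 when doxycycline is present. The 3 proliferating samples had Doxycycline at 1 ug/ml and are labelled as having the p53 knockdown. The 3 senescent samples had the control treatment and are labelled as expressing p53. The 2 groups therefore differ in doxycycline and the hairpin as well as in growth state, and these cannot be told apart here. Senescence is a lasting arrest of the cell cycle in which cells remain metabolically active. Nothing in the labels says whether the 3 samples of a group came from separate cultures or animals, so the p-values speak to the spread among these samples alone, and that spread may be technical.

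The mouse has 4 Hox clusters, which arose by duplication of an ancestral cluster. Genes at matching places in different clusters share a number from 1 to 13 and form a paralogue group. Low numbers lie at one end of a cluster and act toward the head, and high numbers at the other end act toward the tail and in the distal limb. Adult fibroblasts and related cells of connective tissue keep the Hox pattern of their place of origin through many divisions in culture. Hox proteins bind DNA together with homeodomain partners of the Pbx, Meis and Pknox families. Polycomb complexes hold silent Hox genes off, trithorax complexes keep active ones on, and retinoic acid switches on the low-numbered genes in the embryo.

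The arrays correlated at 0.995 to 0.997 within a group and at 0.989 to 0.992 between groups. In a principal component analysis the groups lay apart along component 1 (59.4% of the variance). Along component 2 (15.8%) proliferating sample 1 stood apart, at 28.5 where the other arrays ranged from -22.1 to 11.7. The targeted gene was not analysed here; its textbook targets Cdkn1a, a cyclin-dependent kinase inhibitor, and Mdm2, a p53 ubiquitin ligase, stood 1.74 and 1.21 log2 units higher in the senescent samples, with no overlap between the groups. Levels are log2 values, and changes are senescent minus proliferating with the standard error (SE) of the fit. A gene was called where limma's adjusted p, by Benjamini-Hochberg over all 18194 genes, was below 0.05. The values were set to one distribution on all arrays by the authors, so each change is relative to the bulk of genes. In bulk RNA, fewer cells with a transcript and less transcript per cell cannot be told apart.

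A background level of 5.57 was set at the 95th percentile of 44 probe sets for olfactory receptors, which are mostly silent outside the nose. Against it, the defining markers of the labelled cell type were present only in part. Of 15 stellate cell markers, 10 were above background, among them Des, Hand2, Pdgfrb, Acta2 and Col1a1, with 1 called higher and 5 lower at a summed level of 17.07 to 17.10 in the proliferating and 16.97 to 16.99 in the senescent arrays. Lrat (the retinol-esterifying enzyme of quiescent stellate cells), Gfap, Reln, Lhx2 and Ngfr were not. All 7 listed markers of mesothelial cells, the lining of the body cavities, were above background. They included Upk3b, Msln, Lrrn4 and Wt1, and 2 were called higher and 3 lower in senescence. The summed mesothelial level was 13.85 to 14.07 in the proliferating and 13.80 to 13.84 in the senescent arrays. The 7 portal fibroblast markers were above background too, with 2 called higher and 1 lower, at a summed level of 13.53 to 13.71 against 13.92 to 14.13. Of the hepatocyte, macrophage, endothelial, biliary, lymphocyte and vascular smooth muscle lists, 3 of 7, 5 of 8, 1 of 7, 4 of 5, 1 of 5 and 5 of 6 markers were above background. The summed level of these lists differed without overlap between the groups for the biliary markers, at 10.98 to 11.04 in proliferating and 11.31 to 11.46 in senescent samples, with 1 called higher and 1 lower. Albumin, Ptprc, Pecam1 and Ms4a1 were not above background, though other markers of their lists were. Calls made up 40% of the measured stellate cell, 71.4% of the mesothelial, 42.9% of the portal fibroblast and 40% of the biliary markers. They made up 33.3% of the vascular smooth muscle, 14.3% of the endothelial, 12.5% of the macrophage and 0% of the hepatocyte and lymphocyte markers. Of all genes 20.0% were called, and of genes above background 27.4%. The part of other cell types in the Hox results was not tested.

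Of the 33 Hox genes, 24 did not pass the test between senescent and proliferating cells, and those that passed moved in both directions by at most 0.64. The calls were 4 higher (Hoxb9, Hoxd9, Hoxc13 and Hoxa11) and 5 lower (Hoxc4, Hoxb2, Hoxc6, Hoxc5 and Hoxc8). The 9 calls make 27.3% of the members, beside 20.0% of all genes tested and 27.4% of genes above background. Genes called higher were 9.49% and genes called lower 10.5% of all genes. The 3 arrays of one group lay wholly above those of the other for 13 Hox genes, where 37.0% of all genes did so. The median change was 0.01 over the Hox genes and -0.002 over all genes. These directions rest on the bulk of genes as reference. With the arrays scaled to 24 poly-A spike-in probe sets, the median of all genes shifted by -0.60, Hoxd9, Hoxc13 and Hoxa11 turned to -0.15, -0.19 and -0.31, and Hoxb9 came to 0.04. That scaling moves every gene by the same amount, so it gives no test of any single gene, higher or lower. Under it the 5 lower genes ran from -1.22 (Hoxc4) to -0.94 (Hoxc8).

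The Hox genes above background were mostly of the middle paralogue groups, 2 to 10. The mean over 6 arrays exceeded the level of 5.57 for 21 of the 33 genes. In cluster A these were Hoxa2, Hoxa3, Hoxa5, Hoxa7, Hoxa9 and Hoxa10. In cluster B they were Hoxb2 to Hoxb6 and Hoxb9. In cluster C they were Hoxc4, Hoxc5, Hoxc6, Hoxc8, Hoxc9 and Hoxc13, and in cluster D Hoxd8, Hoxd9 and Hoxd10. None of the 2 measured genes of paralogue group 1, the most head-ward, exceeded it. Nor did Hoxa11, Hoxd11 and Hoxd12, and in group 13, which patterns the digits and the end of the gut and urogenital tract, Hoxc13 was the sole gene of 4 above it. Hoxb7 and Hoxd3 were below by their own probe sets, at means of 5.23 and 5.37 in the proliferating samples. A probe set shared by Hoxb8 and Hoxb7 was above at 8.44 in proliferating and 8.49 in senescent samples, and it does not tell these neighbours apart. Both probe sets shared by Hoxd4 and Hoxd3 were above as well, with changes of -0.13 and 0.14.

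**Figure D1:**
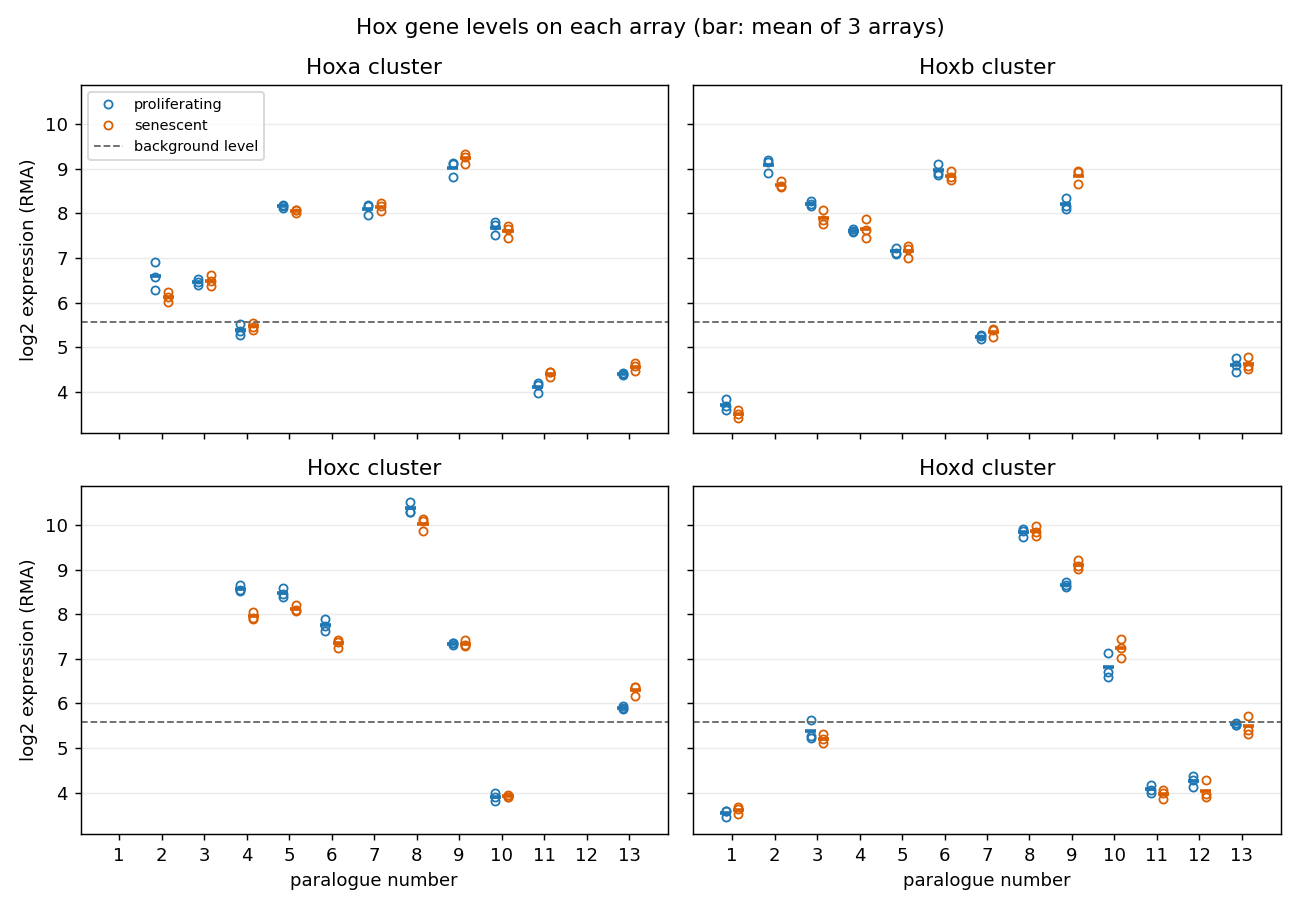
Level of each measured Hox gene on each array (y axis, log2 RMA value) by paralogue number (x axis), 1 panel per cluster. Circles are the 3 proliferating (blue) and 3 senescent (orange) arrays, bars are group means, and the dashed line is the background of 5.57; genes of paralogue groups 1, 11 and 12 lie below it, and the groups separate most clearly for Hoxc4, Hoxb9 and Hoxd9, whose order is relative to the bulk of genes (with spike-in scaling Hoxd9 turns to -0.15 and Hoxb9 is at 0.04).

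The Hoxc cluster held 5 of the 9 calls among its 7 measured genes, and 4 of these were decreases of neighbours. Its share called was 71.4%, beside 20.0% of all genes and 27.4% of genes above background. This was the highest share of the 4 clusters, with 11.1% in cluster A, 22.2% in B and 12.5% in D. Hoxc4, Hoxc5, Hoxc6 and Hoxc8 follow one another in the RefSeq gene order with no other Hox gene between them. Hoxc4 acts in the neck and upper trunk skeleton, Hoxc5 and Hoxc6 at the level of the forelimb and upper thorax, and Hoxc8 in the lower thorax. Hoxc4 was at 8.67, 8.53 and 8.52 in the proliferating samples and at 7.89, 7.91 and 8.06 in the senescent ones. All 3 senescent samples were below all 3 proliferating ones, and the change was -0.62 ± 0.08 (SE, n = 3 per group; 1.54-fold lower; adjusted p = 0.00122, limma). This was the lowest change of any Hox gene, and it passed in all 6 fits that each left out 1 array (-0.68 to -0.58).

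Hoxc5 was at 8.59, 8.39 and 8.46 in proliferating and at 8.08, 8.09 and 8.20 in senescent samples. The groups did not overlap, and the change was -0.36 ± 0.08 (1.28-fold lower; limma adjusted p = 0.0151). Without senescent sample 1 or 2 the call was lost, at -0.33 (adjusted p = 0.0594) and -0.34 (adjusted p = 0.0524). Hoxc6 was at 7.90, 7.74 and 7.62 against 7.43, 7.25 and 7.37. Again every senescent array was lower, by 0.41 ± 0.09 on average (1.33-fold; limma adjusted p = 0.0166). Without senescent sample 2 the change was -0.36 (adjusted p = 0.0615).

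Hoxc8 was at 10.53, 10.29 and 10.30 against 9.86, 10.10 and 10.13, with the proliferating arrays all higher. Its change of -0.34 ± 0.10 (1.27-fold lower; limma adjusted p = 0.0476) was close to the threshold. The call was lost when any 1 of the 6 arrays was left out, with changes from -0.39 to -0.26 and adjusted p from 0.0631 to 0.144. Hoxc9, the next gene, was at 7.31 to 7.36 in proliferating and 7.29 to 7.41 in senescent samples, and its change was -0.01 (95% interval from -0.17 to 0.15). The difference between the changes of Hoxc8 and Hoxc9 was not tested. Hoxc10 was below background in every array. Hoxc13, known for hair and nail formation, went the other way. It was at 5.87, 5.89 and 5.94 in proliferating and at 6.17, 6.37 and 6.37 in senescent samples, close above background. The change was 0.40 ± 0.08 (1.32-fold higher; limma adjusted p = 0.0087), called in all 6 leave-one-out fits, but it was -0.19 with spike-in scaling.

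The bases before the RefSeq start of 2 called genes are printed because one, Hoxc4, had the largest decrease of the Hoxc run and the other, Hoxd9, was higher. Of the 9 called genes the promoter table held Hoxc4, Hoxd9 and Hoxa11, and the choice of Hoxd9 was made after its values were seen. The sequences are the 250 bases upstream of the start on assembly GRCm38.p6, both on the plus strand, Hoxc4 at chr15:103034145-103034394 and Hoxd9 at chr2:74697513-74697762. Capitals mark matches, on either strand, to the motifs described after them.
Hoxc4: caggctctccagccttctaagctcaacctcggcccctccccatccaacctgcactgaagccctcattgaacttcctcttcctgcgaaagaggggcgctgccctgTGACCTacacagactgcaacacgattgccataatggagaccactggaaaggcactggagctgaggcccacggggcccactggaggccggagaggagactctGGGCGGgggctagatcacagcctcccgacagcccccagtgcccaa
Hoxd9: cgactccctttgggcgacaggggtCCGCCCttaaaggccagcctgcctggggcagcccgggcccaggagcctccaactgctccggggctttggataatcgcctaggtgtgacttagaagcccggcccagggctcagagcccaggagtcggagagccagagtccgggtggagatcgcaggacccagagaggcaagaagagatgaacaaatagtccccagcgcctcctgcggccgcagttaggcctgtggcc

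The window of Hoxc4 held 1 GC box (GGGCGG, found in 32.7% of the 32851 windows of the same length) and 1 AGGTCA motif, the core of retinoic acid receptor sites (in 14% of windows). That of Hoxd9 held 1 GC box. Neither held CCAAT (33.8% of windows), TATAAA (12.4%), the Meis and Pknox motif TGACAG (15.9%) or the Pbx-Hox motif TGATTNAT (2.82%). Hoxc4 had 8 CpG dinucleotides and Hoxd9 had 13, beside a median of 6 over all windows. None of these motifs overlapped another in the 2 windows. Over the 19 measured Hox genes with a window, 8 held a GC box, 11 a CCAAT box, 5 AGGTCA and 2 the Meis and Pknox motif. TATAAA was held by 2 and the Pbx-Hox motif by 2. These are counts of genes, and Hoxa10 and Hoxd11 had more than 1 window, so they are not the same measure as the shares of windows. Such matches are letters in a window and say nothing on whether a factor binds.

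Cluster B had 1 call in each direction, 22.2% of its 9 measured genes, beside 20.0% of all genes and 27.4% of genes above background. Hoxb9, which acts in the thorax with its paralogues, had the highest change of all Hox genes. It was at 8.10, 8.17 and 8.34 in proliferating and at 8.92, 8.66 and 8.94 in senescent samples. Every senescent sample was higher, with a change of 0.64 ± 0.10 (1.56-fold; limma adjusted p = 0.00361) that was 0.04 with spike-in scaling. It passed in all 6 leave-one-out fits (0.59 to 0.73). At the other end of the cluster, Hoxb2, a hindbrain segment gene, was at 8.91, 9.14 and 9.21 in proliferating and at 8.59, 8.72 and 8.61 in senescent samples. All senescent arrays were lower, by 0.45 ± 0.09 (1.36-fold; limma adjusted p = 0.0121), and the call held in all 6 leave-one-out fits (-0.54 to -0.38).

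Hoxb3, also a gene of the hindbrain and neck, was at 8.16, 8.21 and 8.27 against 7.76, 8.09 and 7.86. These groups did not overlap either, but the change of -0.31 ± 0.09 missed the threshold (limma adjusted p = 0.0529). It passed without senescent sample 2, at -0.40 (adjusted p = 0.0197). The middle of the cluster gave values near 0. The changes of Hoxb4, Hoxb5 and Hoxb6 were 0.03, 0.01 and -0.13, with 95% intervals of -0.21 to 0.28, -0.19 to 0.22 and -0.34 to 0.09. A decrease as large as that of Hoxc4 lies outside all 3 intervals. Hoxb1, Hoxb7 and Hoxb13 were below background and were not called.

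In cluster D, Hoxd9 alone was called. This makes 12.5% of the 8 measured genes, beside 20.0% of all genes and 27.4% of genes above background. Hoxd9 belongs to the paralogue group of Hoxb9 and acts in the lower spine and proximal limb. It was at 8.72, 8.62 and 8.65 in proliferating and at 9.09, 9.005 and 9.23 in senescent samples. The lowest senescent array was above the highest proliferating one, and the change was 0.45 ± 0.08 (1.36-fold higher; limma adjusted p = 0.00586), or -0.15 with spike-in scaling. The call held in all 6 leave-one-out fits (0.39 to 0.50). Its neighbour Hoxd10, a hindlimb and lower spine gene, was at 6.59, 6.71 and 7.14 against 7.24, 7.44 and 7.02. Proliferating sample 3 lay above senescent sample 3, so the groups overlapped, and the change of 0.42 ± 0.16 was not called (limma adjusted p = 0.103). Without proliferating sample 3 it was 0.58 and passed (adjusted p = 0.0233). Hoxd8, on the other side, was at 9.74 to 9.90 and 9.75 to 9.97, a change of 0.02 (95% interval from -0.17 to 0.21). The 5 remaining genes, Hoxd1, Hoxd3, Hoxd11, Hoxd12 and Hoxd13, were below background with changes between -0.21 and 0.08.

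By the probe set that stood for each gene, cluster A had no called gene above background. Its 1 call, Hoxa11, made 11.1% of 9 measured genes, beside 20.0% of all genes and 27.4% of genes above background. Hoxa2, which patterns the hindbrain and the skeleton of the face, was at 6.92, 6.57 and 6.29 in proliferating and at 6.01, 6.25 and 6.13 in senescent samples. The groups did not overlap, but by a narrow margin, since proliferating sample 3 was 6.29 and senescent sample 2 was 6.25. The change was -0.46 ± 0.15, with a 95% interval from -0.81 to -0.12 and a limma adjusted p of 0.0647. Without proliferating sample 3 it was -0.62 and passed (adjusted p = 0.0168). Hoxa9, a regulator of blood stem cells and of the trunk, was at 8.82, 9.13 and 9.12 against 9.34, 9.26 and 9.11. Its arrays overlapped, with a change of 0.22 ± 0.11 (adjusted p = 0.206). Hoxa3, Hoxa5, Hoxa7 and Hoxa10 had differences of 0.03, -0.10, 0.04 and -0.08, each with a 95% interval that held 0. A further probe set of Hoxa3, above background, gave -0.39 and was called lower in a fit over all probe sets.

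Hoxa11, a gene of the forearm and the uterus, was the single call in cluster A by these probe sets and lay below background in every array. It was at 3.98, 4.16 and 4.20 in proliferating and at 4.44, 4.33 and 4.44 in senescent samples. The fit gave 0.29 ± 0.08 (limma adjusted p = 0.0424), with no fold change given for a gene below background in both groups. The call was lost in all 6 leave-one-out fits (0.22 to 0.33, adjusted p from 0.0597 to 0.126), and spike-in scaling turned it to -0.31. Hoxa4 and Hoxa13 were below background too.

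**Figure D2:**
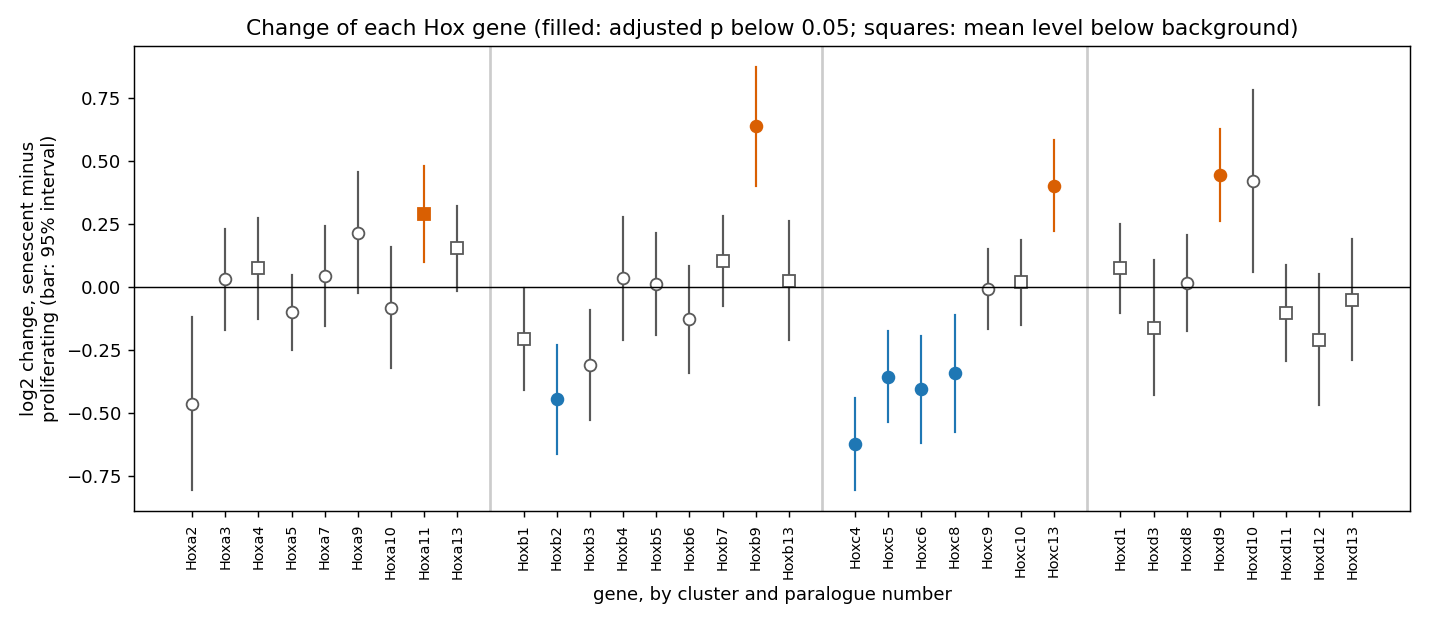
Change of each Hox gene, senescent minus proliferating (y axis, log2), ordered by cluster and paralogue number (x axis), with 95% intervals from 3 arrays per group. Filled symbols passed limma's adjusted p of 0.05 and squares are genes below background; 4 neighbouring Hoxc genes lie between -0.62 and -0.34, while Hoxb9, Hoxd9 and Hoxc13 lie between 0.40 and 0.64 relative to the bulk of genes (0.04, -0.15 and -0.19 with spike-in scaling).

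Across the clusters, all 5 lower calls had paralogue numbers up to 8 and all 4 higher calls numbers from 9. Among them, the calls of Hoxc8 and Hoxa11 were lost in all 6 leave-one-out fits, and Hoxa11 lay below background in every array. Groups 1 to 8 held 19 measured genes with a median change of -0.13, of which 11 were negative and 8 positive, and 26.3% were called. Groups 9 to 13 held 14 with a median of 0.09, of which 9 were positive and 5 negative, and 28.6% were called. Of all genes 10.5% were called lower and 9.49% higher. The division between groups 8 and 9 was chosen after the values were seen. Both genes of group 2, Hoxa2 and Hoxb2, had negative changes with arrays that did not overlap, of -0.46 and -0.45. Such separation was seen for 37.0% of all genes, and Hoxa2, apart by a narrow margin, was not called (limma adjusted p = 0.0647). In group 9 all 4 paralogues were above background, and their changes were 0.22 for Hoxa9, 0.64 for Hoxb9, -0.01 for Hoxc9 and 0.45 for Hoxd9. Paralogue number and change gave a Spearman rho of 0.43 and a Pearson r of 0.48 over the 33 genes. Over the 21 genes above background these were 0.64 and 0.69. These are descriptions across genes read from the same 6 arrays, and genes of one cluster are not independent.

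Of the members, 11 had more than 1 probe set, and for several the sets differed. The call of Hoxc6 was accompanied by a call at -0.58 in a further set, whose design need not be specific to 1 transcript, while its remaining set gave -0.21 and was not called. The other sets of Hoxc5 gave -0.20 and -0.18, lower but not called. For Hoxa3, the set that was read gave 0.03, and a set of a design that need not be specific to 1 transcript gave -0.39 and was called lower. In RefSeq the span of Hoxa3 overlaps those of Hoxa4, Hoxa5 and Hoxa6. The Hoxb3 set just short of the threshold gave -0.31 and the other set of that gene 0.04. The 2 sets of Hoxb4 gave 0.03 and 0.24. Hoxc4, Hoxc8, Hoxc13, Hoxb2, Hoxb9, Hoxd9 and Hoxa11 had 1 set each, so their changes have no such check. Adjusted p-values for sets other than those read come from a fit over all probe sets.

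**Figure D3:**
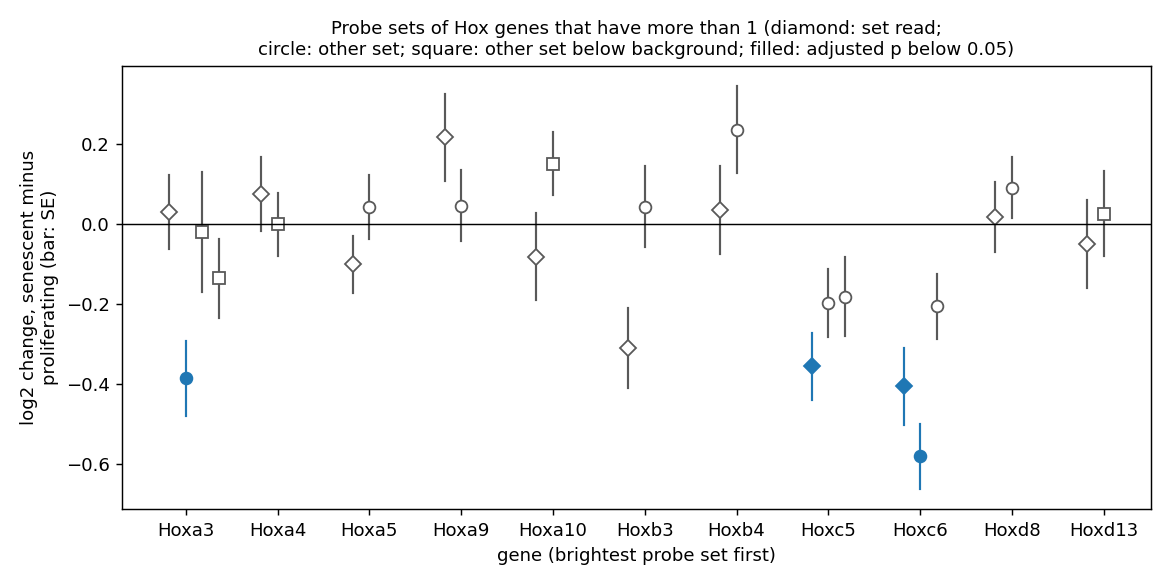
Change, senescent minus proliferating (y axis, log2, bar: SE from a fit over all probe sets, 3 arrays per group), for each probe set of the 11 Hox genes with more than 1 (x axis). Diamonds are the sets read, circles other sets and squares other sets below background; filled symbols passed an adjusted p of 0.05, and the sets of Hoxa3 run from -0.39 to 0.03 and those of Hoxc6 from -0.58 to -0.21.

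Long antisense transcripts lie between Hox genes. That of Hoxd3 (Hoxd3os1) was at 7.27 in proliferating and 7.48 in senescent samples, a change of 0.21 that was not called, and its other set was below background. That of Hoxb5 (Hoxb5os) was at 5.66 and 5.39, and both sets for that of Hoxa11 were below background. Whether the probes tell the strands apart was not tested.

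Among the partners of Hox proteins, 2 were called lower. Of 9 listed cofactors 8 were measured, all above background, and the calls make 25% of these, beside 20.0% of all genes and 27.4% of genes above background. Pknox2, a partner of Pbx proteins, was at 8.21, 8.03 and 8.09 in proliferating and at 6.82, 6.15 and 6.58 in senescent samples. Every senescent sample was more than 1 log2 unit below every proliferating one, and the change was -1.59 ± 0.15 (3.01-fold lower; limma adjusted p = 3.47e-04). Meis1, which binds DNA with Hox proteins and helps specify the proximal limb, was at 8.49, 7.70 and 7.80 against 6.86, 6.98 and 6.93. The groups were apart, with a change of -1.07 ± 0.19 (2.10-fold lower; limma adjusted p = 0.00508). Proliferating sample 1 was the high one, and without it the change was -0.82. Both calls held in all 6 leave-one-out fits. The other 6 were not called: Pbx2 at -0.24 (adjusted p = 0.0635), Meis2 at -0.14, Pbx4 at -0.09, Pknox1 at -0.0002, and Meis3 and Pbx3 at 0.13 each. The median over the 8 cofactors was -0.11, beside -0.002 over all genes.

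The Polycomb list, whose complexes silence Hox genes, had 29 of its 31 genes measured. Of these, 3 were called higher and 8 lower, or 4 and 4 with the arrays centred on genes of middle level, and the median change was -0.14. The calls make 37.9% of the list, beside 20.0% of all genes and 27.4% of genes above background. With the mean of a gene's probe sets the list gave 1 higher and 5 lower, so part of the calls rests on the probe set read. Mtf2, which guides Polycomb repressive complex 2 to CpG islands, had the largest decrease, at -0.56 (1.47-fold; limma adjusted p = 0.00347). Phc1, a scaffold of complex 1, was lower by 0.45 (limma adjusted p = 0.00383). Aebp2, another accessory subunit of complex 2, was higher by 0.47 and Scmh1, of complex 1, by 0.46, though both were negative with spike-in scaling, at -0.13 and -0.14. The calls of Mtf2, Phc1 and Aebp2 held in all 6 leave-one-out fits. That of Scmh1 held in 4 (0.39 to 0.55) and was lost without senescent sample 1 or 3. Cbx6, Pcgf5, Bmi1, Suz12, Cbx2 and Rbbp7 were lower by 0.24 to 0.39. Of these calls, that of Cbx6 held in all 6 leave-one-out fits, Suz12 in 4, Cbx2 in 3, Pcgf5 in 2, Bmi1 in 1 and Rbbp7 in 0. With 1 array left out those of them that lost a call ranged from -0.44 to -0.22. Phc2 was higher by 0.37 (-0.23 with spike-in scaling, and lost without senescent sample 1 or 3). With 1 array left out the number lower was 3 (without proliferating sample 3) to 6, and the number higher 1 (without senescent sample 1 or 3) to 4. Ezh2, the methyltransferase of complex 2, was at -0.14 and was not called.

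Of the trithorax and H3K27 demethylase genes, which favour Hox expression, 16 of 18 were measured. There was 1 higher and there were 5 lower, with a median of -0.17. The calls make 37.5% of the list, all above background, beside 20.0% of all genes and 27.4% of genes above background. Men1 (menin), which with Psip1 tethers the methyltransferase Kmt2a to Hox genes, was lower by 0.40 (limma adjusted p = 0.00464). Psip1 was lower by 0.42 (limma adjusted p = 0.00599). The methyltransferase Kmt2c was lower by 0.42, a call lost without proliferating sample 1 or senescent sample 1 or 3 (-0.51 to -0.34 over the 6). The acetyltransferase Kat6a was lower by 0.33 and held in all 6. Ash2l was lower by 0.28, called in 2 of the 6 fits. Mllt3 was higher by 0.33 (-0.27 with spike-in scaling), and its call held in 2 of the 6 fits. The number of lower calls was 3 to 4 with 1 array left out and the number higher 0 or 1. With the mean of a gene's probe sets the list gave 1 higher and 2 lower. Kmt2a was at 0.07, and the demethylases Kdm6a and Kdm6b at -0.21 and -0.19, none of them called.

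**Figure D4:**
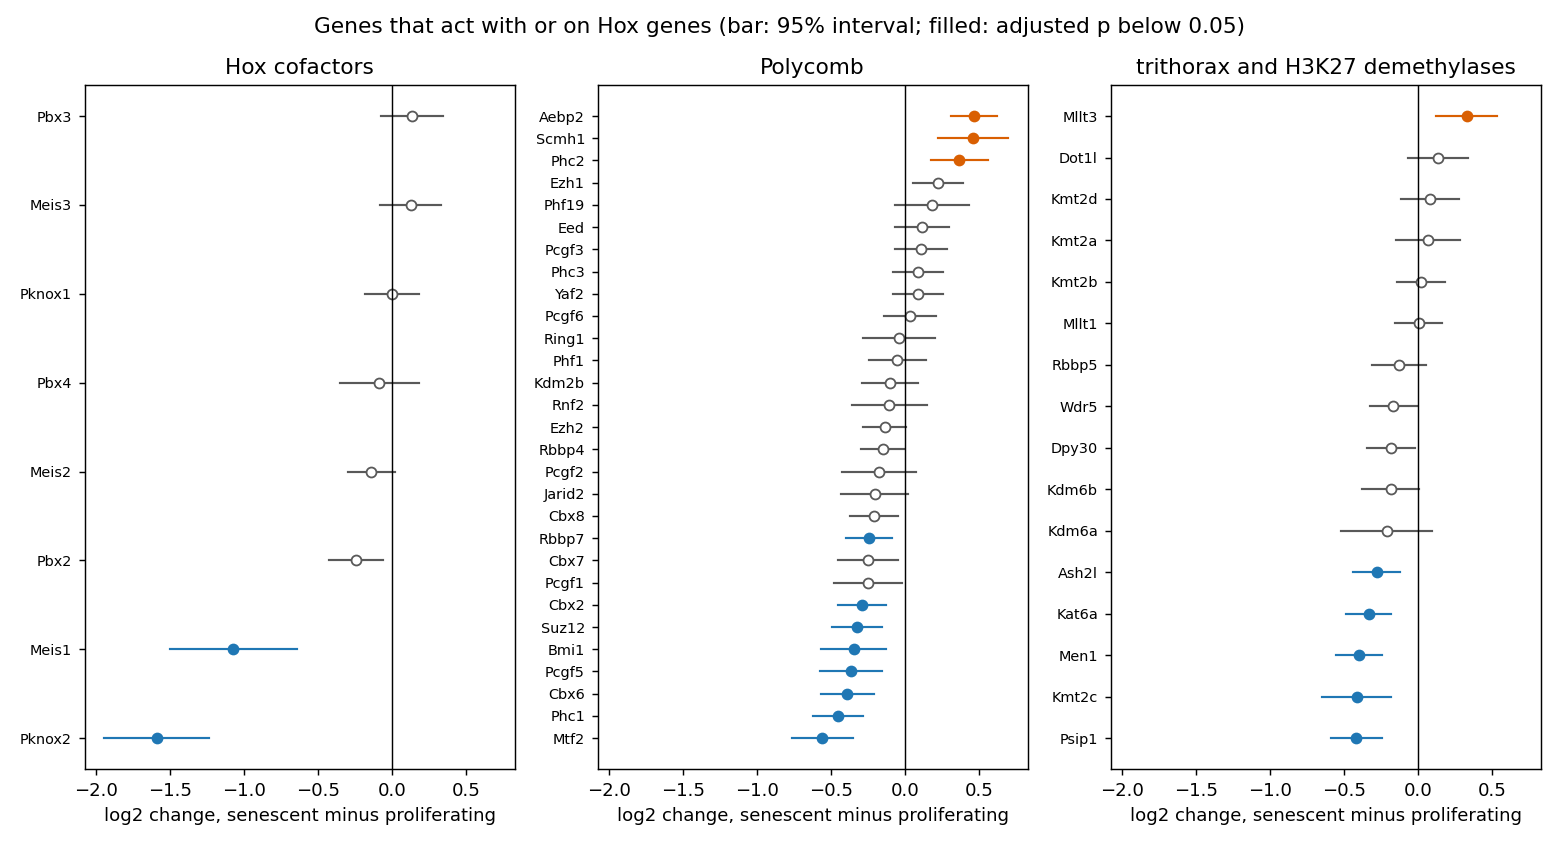
Change, senescent minus proliferating (x axis, log2, bar: 95% interval, 3 arrays per group), for each measured Hox cofactor, Polycomb and trithorax gene (y axis). Filled symbols passed an adjusted p of 0.05; Pknox2 and Meis1 lie at -1.59 and -1.07, and the called Polycomb and trithorax genes between -0.56 and 0.47 relative to the bulk of genes (the 4 higher ones are negative with spike-in scaling).

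The list of other transcription factors that mark where mesenchymal cells come from held larger changes than any Hox gene had. Of 69 listed factors 64 were measured and 45 were above background, with 3 called higher and 13 lower, and a median of -0.10. The calls make 25% of the list, beside 20.0% of all genes and 27.4% of genes above background. The lower count ran from 10 to 15 with 1 array left out, and the higher count stayed at 3. Tbx20, a T-box factor of the heart, was at 8.47, 9.20 and 9.26 in proliferating and at 6.46, 7.76 and 7.56 in senescent samples. Sample 1 was the lowest of each group, and the change was -1.72 ± 0.34 (3.29-fold lower; limma adjusted p = 0.00904). Snai2, a repressor that drives epithelial-mesenchymal transition, was lower by 1.15 and Irx1 by 0.96. Wt1, a factor of the coelomic lining and its descendants, was lower by 1.11, or by 0.87 without proliferating sample 1. All 4 calls held in the 6 leave-one-out fits. Hand2, a marker of stellate cells, and Prrx1, a limb and connective tissue homeobox gene, were lower by 0.85 and 0.74. The 3 higher ones were homeobox genes, Prrx2 at 0.72, Dlx2 at 0.68 and Msx2 at 0.62, the last below background. With spike-in scaling the first 2 were at 0.12 and 0.08 and no member was called higher.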

How the data were processed

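RNA of 3 proliferating and 3 senescent samples, grouped by their titles, was hybridised as biotin-labelled cRNA to Affymetrix arrays, per the labels' protocols. The deposited log2 values per probe set were made by the authors with RMA, per the submitters' processing notes, which corrects background, gives all arrays one distribution of values and summarises probes. The RMA version and the scan batches were not given in the sources used. Such normalization removes shifts shared by most genes. Genes were named from the platform annotation where a probe set had 1 symbol (34958 of 45101; 932 had several and 9211 none), with 1 probe set per gene, that of the highest mean.

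Groups were compared over 18194 genes by a linear model without covariates (limma 3.58.1 under R 4.3.3, functions lmFit and eBayes). Benjamini-Hochberg adjusted p-values were held to a threshold of 0.05. On simulated data for this comparison, with 18194 genes, 35 of 50 genes shifted by 0.5 log2 units were called, and all 50 shifted by 1. The simulation drew noise independently for each gene and changed far fewer genes than the 3645 called here. Its recovery therefore need not hold for these data. With 3 arrays a group, their number limits the precision. Every Hox gene is named; other lists give up to 4 called genes by size of change, or the 2 brightest of lists with fewer than 2 calls, and further genes were named after their values were seen. The members and lists were chosen with earlier results of these data known. Replicate numbers did not pair samples (deviation correlations of 0.09, -0.07 and -0.15). Promoters are RefSeq's, read with Python 3.11.15. Alternatives covered probe set choice, dim genes, centring, spike-ins, variance prior, array weights, replicate block and left-out arrays.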

Additional observations from a re-analysis of the deposited data

How the results depend on the processing

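Scaling to the poly-A spike-ins moved these results most: 0 Hox genes were called higher and 27 lower, and 27 had groups that did not overlap, where 84.2% of all genes were called. The labels do not state how much spike-in each sample received, and the spike-in shift ranged from 0.08 to 0.60 among the senescent arrays alone. Changes that turned negative under it were -0.57 for Hoxa3, -0.52 for Hoxa4, -0.55 for Hoxa7, -0.31 for Hoxa11, -0.44 for Hoxa13, -0.56 for Hoxb4, -0.58 for Hoxb5, -0.49 for Hoxb7, -0.57 for Hoxb13, -0.58 for Hoxc10, -0.19 for Hoxc13, -0.52 for Hoxd1, -0.58 for Hoxd8 and -0.15 for Hoxd9. Hoxa9 and Hoxd10, which passed in neither fit, also turned negative, at -0.38 and -0.18. Testing only genes above the median level left 15 Hox genes, of which 2 were called higher and 6 lower, where 41.8% of all genes tested were called. With 1 array left out, 3 to 4 were called higher and 3 to 5 lower, the 3 lower calls without senescent sample 1 or 2. From 13.4% to 18.3% of all genes were called in these fits. The counts higher and lower were 3 and 4 with the replicate block (2935 genes called in all, against 3645). They were 3 and 4 in the fit over all probe sets, where 15.8% of all genes were called. The mean of a gene's probe sets gave 4 and 5 (17.7% of all genes), and middle-level centring 4 and 4 (20%). Array weights gave 4 and 6 (23.3%), and a trended robust prior 3 and 7 (23.2%). Among the 21 genes above background the counts were 3 and 7, where 32.2% of all genes tested were called. In the last, Hoxa2 and Hoxb3 were added to the lower calls, and Hoxa11, below background, was not tested. The replicate numbers did not pair the samples, and the block took away the calls of Hoxc8 and Hoxa11 (adjusted p = 0.101 and 0.08, limma). The number above background was 20 at the 99th percentile of olfactory probe sets, 27 at their median and 15 at the median of all genes. The arrays cannot resolve changes of genes below background.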

Other observations

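Genes of retinoic acid, the signal that switches on low-numbered Hox genes in the embryo, included 3 called higher. Of 18 listed genes 16 were measured and 11 were above background, with 1 called lower. The calls make 25% of the measured genes, beside 20.0% of all genes and 27.4% of genes above background. Cyp26b1, which breaks down retinoic acid, was at 7.12, 7.46 and 7.53 in proliferating and at 9.22, 9.04 and 8.999 in senescent samples. All senescent samples were higher, with a change of 1.72 ± 0.12 (SE, n = 3 per group; 3.29-fold; limma adjusted p = 8.17e-05), and of 1.12 with spike-in scaling. Rdh10 and Aldh1a1, which make retinoic acid from retinol in succession, were higher by 0.79 (limma adjusted p = 0.00488) and 0.58 (limma adjusted p = 6.97e-04), though Aldh1a1 was at -0.01 and Rdh10 at 0.19 with spike-in scaling. Crabp1, a retinoic acid-binding protein, was called lower by 0.72 but lay below background. Dhrs3, which turns retinal back to retinol, was at 9.15, 7.71 and 7.56 against 7.41, 7.17 and 7.08, with proliferating sample 1 far above the rest, and was not called (adjusted p = 0.123). The receptors Rara, Rarg, Rxra and Rxrb were not called, with changes from -0.16 to -0.01.

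The ParaHox genes and the homeobox genes that flank the Hox clusters gave no call in limma's fit. All 9 were measured, and 3 were above background. Gsx1 was at 5.63, 5.71 and 5.57 in proliferating and at 5.88, 5.68 and 6.25 in senescent samples, with overlapping groups and a change of 0.30 ± 0.14 (adjusted p = 0.169). Evx2, which lies beside the Hoxd cluster, was at 6.12 to 6.32 and 6.24 to 6.39, a change of 0.10 ± 0.08 (adjusted p = 0.449). Cdx2, of the hindgut, was at -0.11.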
